A study of Mus musculus with 16 samples.

Results

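TCRBV02-01 is the name that the immunoSEQ sequencing service gives to the mouse gene Trbv2, which encodes the V-beta 4 segment of the T cell receptor β chain. Rearrangements were taken as TCRBV02-01 where the service had assigned that V gene to the sequence, and 9473 of 198953 listed rearrangements carried it in the 16 samples. Of these, 6109 were productive (in frame, with no stop codon), of 126344 productive rearrangements of all V genes, 3328 were out of frame, of 70245, and 36 held a stop codon. The 6109 productive entries spelled 5329 distinct amino acid sequences of the third complementarity-determining region (CDR3), and held 31493 of 526888 productive templates, a template being the service's estimate of 1 input molecule. The recurrent CDR3s below were chosen by the number of samples that held them and the leading clones by their template counts, so those numbers of samples and counts are descriptions.

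The T cells came from tumors grown under the skin of female C57BL/6 mice from KPC.Luc, a luciferase-expressing mouse line of pancreatic ductal adenocarcinoma (PDAC), and per the labels were pulled out on magnetic beads by CD90.2 (Thy1.2, a surface protein of mouse T cells) to a purity of 80 to 85%. The study's account of the receptor sequencing names tumors and does not repeat that selection, so how pure the sequenced cells were is not settled. There were 4 groups of 4 mice, 1 sample a mouse, and the mice are called here by the replicate numbers of their samples. Control mice received a scrambled peptide with an isotype IgG. ANT008 mice received ANT008, a peptide antagonist of the receptors for vasoactive intestinal peptide (VIP), with the IgG. Anti-PD-1 mice received an antibody to the inhibitory receptor PD-1 with the scrambled peptide, and combination mice received ANT008 with anti-PD-1. All mice were treated for 10 days from day 6 or 7 after implantation, with 10 µg of peptide daily under the skin and 200 µg of antibody into the abdomen every 3 days. No tumor-free mice or other tissues enter the comparisons.

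A β chain is made in the thymus when a V, a D and a J gene segment are cut and joined, with bases trimmed from their ends and others inserted without a template by terminal transferase. The join encodes the CDR3, the loop that lies over the peptide presented by an MHC molecule, while the V gene supplies the other loops, so T cells that share a V gene and a CDR3 can share a target. Out-of-frame joins persist in T cells whose other allele made the working chain, and since they make no protein their V gene use reflects rearrangement before selection. A CDR3 that needs few inserted bases is made often and tends to be found in many individuals; such CDR3s are called public.

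The TCRBV02-01 label was checked on the sequences themselves. The 36 bases just before the CDR3 were present in 9383 of the 9473 rearrangements and were identical to their consensus in 97.4% of them. In 99.99% they were nearer to the TCRBV02-01 consensus than to that of any other V gene, the nearest of which (TCRBV12-02) differed at 13 bases. The V segment gives the CDR3 up to 17 bases, printed here in capitals after those 36 bases because every sequence below begins from it.
TCRBV02-01: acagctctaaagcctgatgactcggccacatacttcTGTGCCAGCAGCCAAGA
These bases encode the start CASSQ, which 77.3% of productive TCRBV02-01 CDR3s kept, against 5.75% of those made with other V genes. TCRBV05-01, a neighbour in the upstream part of the locus, shares that start in 65.1% of its CDR3s. In the RefSeq gene table for GRCm38.p6, Trbv2 lies between Trbv1 and Trbv3. The files name no build, so no coordinates are given.

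Among the largest TCRBV02-01 clones were the sequences shown next, 5′ to 3′, lower case for bases of the V, D and J segments and capitals for the inserted bases. Each had TCRBJ02-03 as its J gene and a CDR3 of 16 or 17 residues that began CASSQDE and ended AETLYF. The group of TCRBV02-01 rearrangements with that start, that end and that J gene is called the CASSQDE family here, and it was picked out after the template counts were seen.
control mouse 1 and ANT008 mouse 1: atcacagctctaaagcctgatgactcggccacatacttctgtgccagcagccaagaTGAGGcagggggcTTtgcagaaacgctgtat
combination mouse 2: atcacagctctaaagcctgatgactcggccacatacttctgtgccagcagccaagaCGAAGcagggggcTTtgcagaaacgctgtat
control mouse 2 and ANT008 mouse 3: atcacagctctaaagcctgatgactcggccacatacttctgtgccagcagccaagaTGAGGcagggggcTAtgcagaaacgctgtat
combination mouse 3: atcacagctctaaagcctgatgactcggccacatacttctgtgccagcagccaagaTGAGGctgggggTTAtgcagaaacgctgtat
control mouse 3: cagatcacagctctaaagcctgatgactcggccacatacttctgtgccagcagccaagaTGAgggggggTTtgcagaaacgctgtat
combination mouse 4: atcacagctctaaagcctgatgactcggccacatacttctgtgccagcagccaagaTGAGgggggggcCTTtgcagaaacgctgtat
anti-PD-1 mouse 2: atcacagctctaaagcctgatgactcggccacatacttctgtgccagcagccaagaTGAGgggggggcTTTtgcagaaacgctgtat
anti-PD-1 mouse 4: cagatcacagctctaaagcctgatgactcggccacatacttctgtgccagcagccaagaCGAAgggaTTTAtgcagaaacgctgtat
The first and second encode the same CDR3 from different inserted bases between V and D, TGAGG and CGAAG. The pair of sequences after them encodes another CDR3, with different D bases and different inserted bases after D. In all 8 the inserted bases began TGA or CGA. With the GA that ends the V segment and the base that follows, these spell the residues D and E, which the definition of the family requires.

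Of the 12 CDR3s found in the most samples, 9 had a mean number of inserted bases below the TCRBV02-01 mean of 3.66. As examples of how such public CDR3s can be made, 3 are printed, found in 11, 8 and 8 of the 16 samples, in versions with 0 or 1 inserted bases.
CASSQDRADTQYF: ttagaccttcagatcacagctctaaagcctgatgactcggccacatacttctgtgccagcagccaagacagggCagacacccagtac
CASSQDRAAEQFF: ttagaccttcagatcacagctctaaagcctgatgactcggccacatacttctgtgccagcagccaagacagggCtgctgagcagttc
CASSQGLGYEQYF: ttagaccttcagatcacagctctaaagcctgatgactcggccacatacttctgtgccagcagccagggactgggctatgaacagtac
The printed nucleotide versions were found in 5, 2 and 2 samples, and no other version of the same CDR3 was found in more. For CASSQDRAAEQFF and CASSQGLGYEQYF, other versions were found in as many samples, so the line printed is only an example. Other samples often held the same amino acids from other nucleotides, with up to 6 inserted bases for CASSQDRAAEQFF.

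Depth set how finely a share could be measured. A sample held 7180 to 72588 productive templates and 2526 to 13939 unique productive rearrangements, of which 132 to 631 were TCRBV02-01. Of all listed rearrangements, 117 (0.0588%) had no V gene resolved. The template counts cover molecules, so more T cells of a clone and more template per cell cannot be told apart, and the cells were not divided into CD4+ and CD8+ T cells.

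As a share of unique productive rearrangements, TCRBV02-01 was steady. Control mice averaged 5.07% ± 0.282, ANT008 mice 4.86% ± 0.194, anti-PD-1 mice 5.04% ± 0.713 and combination mice 4.87% ± 0.322 (SD, n = 4 each), and the 16 samples lay between 4.43% and 6.06%. That was the 10th highest share of 33 V genes, and its coefficient of variation over the 16 samples was 0.0796. Of unique out-of-frame rearrangements it made up 4.80% ± 0.404 (SD, n = 16), the 9th highest.

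As a share of productive templates it varied far more. The control mice had 12.6%, 4.56%, 8.31% and 3.00%. The ANT008 mice had 6.07%, 5.73%, 4.39% and 4.81%. The anti-PD-1 mice had 6.37%, 4.47%, 2.26% and 7.83%, and the combination mice 5.46%, 10.5%, 9.63% and 4.38%. All 4 groups overlapped: the control group held the highest sample, the anti-PD-1 group the lowest, and the ANT008 mice lay within the range of the control mice. Over the 16 samples the mean was 6.27% ± 2.81 (SD), 8th of 33 V genes, with a coefficient of variation of 0.448. Its neighbours in that order were TCRBV13-02 at 6.59% ± 3.10 and TCRBV01-01 at 5.48% ± 5.21 (SD, n = 16). The spreads overlapped, and the differences between these genes were not tested.

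**Figure D1:**
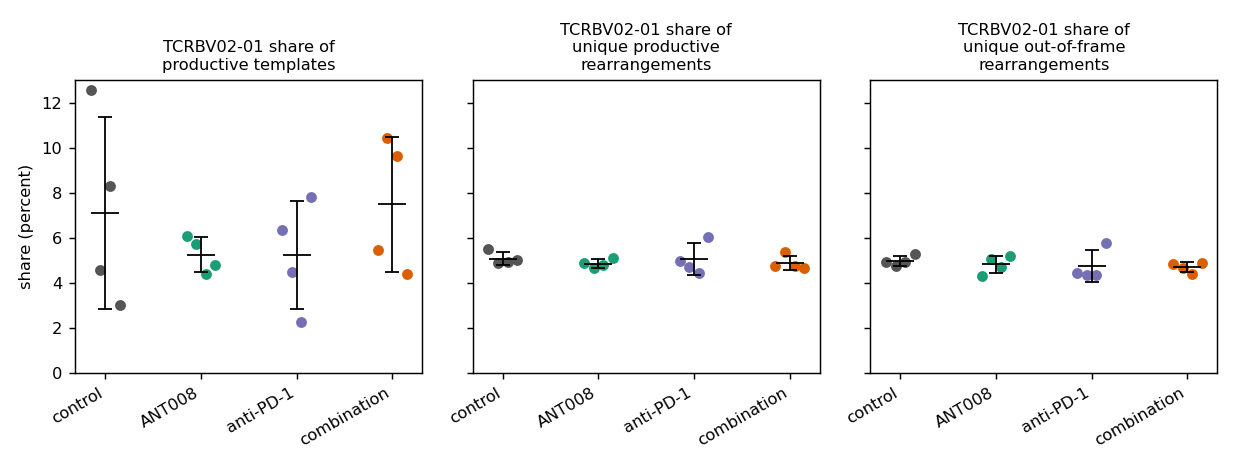
Share of TCRBV02-01 in percent (y axis) for the 4 groups (x axis), by productive templates, by unique productive rearrangements and by unique out-of-frame rearrangements; each point is 1 mouse, and lines mark the mean and SD of 4 mice. Template shares run from 2.26% to 12.6% with all groups overlapping, while unique productive shares stay between 4.43% and 6.06%.

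No treatment moved the TCRBV02-01 template share beyond the spread between mice. Against control, the log2 fold change was -0.44 (SE 0.47) in ANT008 mice, -0.44 (SE 0.47) in anti-PD-1 mice and 0.07 (SE 0.47) in combination mice. The adjusted p-values over 25 V genes were 0.898, 0.699 and 0.958 (edgeR quasi-likelihood test). Of all V genes tested, 4%, 0% and 0% passed in these comparisons. The departure of the combination from the sum of both single treatments was 0.96 (SE 0.66, edgeR adjusted p 0.508). The 3 comparisons share the control mice, and a p above the threshold does not show that the shares were equal. With the CASSQDE family left out, a choice made after the counts were seen, the log2 fold changes were -0.09, -0.01 and 0.09. Control mouse 1 held the highest share, and without it the values were -0.01, -0.02 and 0.50.

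Other V genes of the upstream part of the locus were set beside it as a list. Against control, TCRBV01-01 differed by -0.90, -1.02 and -1.38 on the log2 scale in ANT008, anti-PD-1 and combination mice, TCRBV03-01 by 0.29, 0.79 and 0.12, TCRBV04-01 by 0.78, 0.53 and 0.74, and TCRBV05-01 by -0.08, -0.42 and 0.13. None of these 4 genes passed in any of the 3 comparisons (edgeR, lowest adjusted p 0.220). The V genes with the highest Pearson r to TCRBV02-01 in log2 template share over the 16 samples were TCRBV18-01 (0.60), TCRBV05-01 (0.57) and TCRBV26-01 (0.45). Their Spearman rho was 0.52, 0.48 and 0.48. TCRBV18-01 held a mean of only 0.000347% of templates (SD 0.00103). With so few templates, its r cannot tell a likeness to TCRBV02-01 from the depth of the samples. Without control mouse 1 and anti-PD-1 mouse 3, which had the most extreme TCRBV02-01 shares, r was 0.29, 0.50 and 0.72. Shares within a sample sum to 100%, and sample depth is common to all of them.

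In several mice a single rearrangement held much of the TCRBV02-01 share. The largest TCRBV02-01 clone of each control mouse held 1075, 460, 1638 and 162 templates, which was 4.13%, 1.12%, 4.30% and 0.434% of all productive templates. In the ANT008 mice it held 483, 524, 70 and 132 templates, or 2.13%, 1.59%, 0.607% and 0.636%. In the anti-PD-1 mice it held 713, 181, 102 and 47 templates, or 2.21%, 0.573%, 0.141% and 0.655%, and in the combination mice 439, 874, 3409 and 120, or 1.31%, 3.56%, 5.81% and 0.332%. The 95% Wilson intervals, which cover counting error only, ran from 0.116% to 0.171% for the smallest of these shares and from 5.62% to 6.00% for the largest. In combination mouse 3 a single rearrangement made up 60.3% of TCRBV02-01 templates, and in control mouse 3 another made up 51.7%. Not every high share had such a clone: anti-PD-1 mouse 4, at 7.83%, had a leading clone of only 0.655%.

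The leading clone belonged to the CASSQDE family in 7 of the 16 mice: control mice 2 and 3, ANT008 mice 1 and 3, anti-PD-1 mouse 4 and combination mice 3 and 4. The other 9 had leaders of other kinds, of which 3 are printed to show how differently they were built.
ANT008 mouse 2, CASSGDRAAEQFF: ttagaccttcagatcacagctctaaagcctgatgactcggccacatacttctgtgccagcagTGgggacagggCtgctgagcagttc
combination mouse 1, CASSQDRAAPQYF: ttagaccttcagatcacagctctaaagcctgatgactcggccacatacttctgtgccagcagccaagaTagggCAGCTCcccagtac
combination mouse 2, 16 residues beginning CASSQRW, with TCRBJ02-03: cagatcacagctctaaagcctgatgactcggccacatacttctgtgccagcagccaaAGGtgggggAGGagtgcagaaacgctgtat
In anti-PD-1 mouse 1 the leader was the public CDR3 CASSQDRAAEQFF printed above, with 713 templates.

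**Figure D2:**
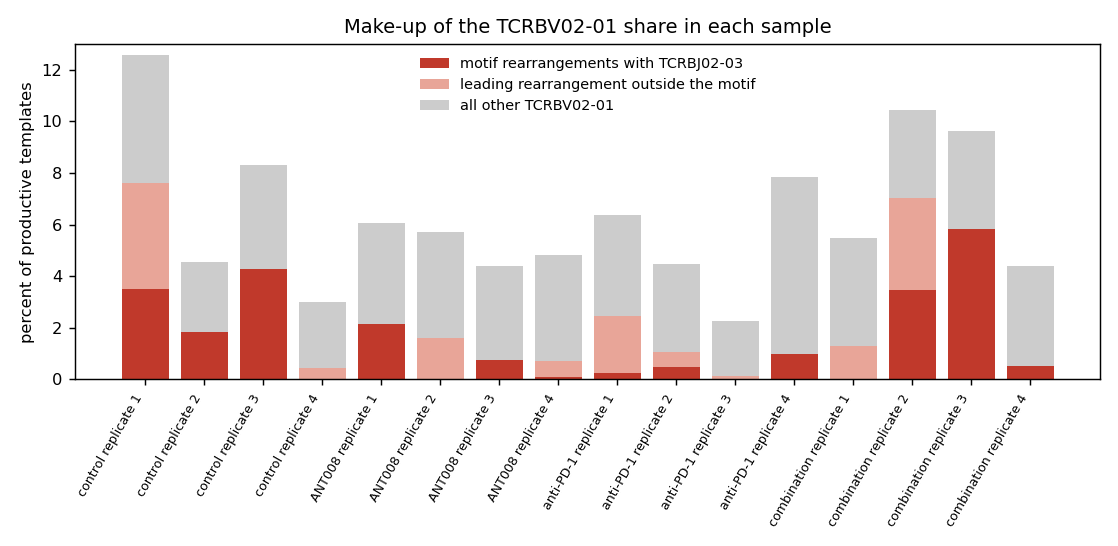
Percent of productive templates (y axis) held by TCRBV02-01 in each of the 16 samples (x axis), stacked as the CASSQDE family (the motif rearrangements), the leading TCRBV02-01 clone where it lay outside the family, and all other TCRBV02-01 rearrangements. The family is the largest part in combination mouse 3 and control mouse 3 and absent from combination mouse 1.

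Within the CASSQDE family, 41 rearrangements counted by CDR3 nucleotides held 8671 templates, so that 0.688% of TCRBV02-01 rearrangements carried 27.5% of its productive templates. They had 36 distinct nucleotide sequences and 22 CDR3s of 16 to 20 residues, 18 of them of 16 or 17. The residue before AETLYF was phenylalanine in 12 of the 22 CDR3s (4491 templates), tyrosine in 9 (4179 templates) and alanine in 1 (1 template), and 14 of the 22 held a pair of glycines. The D gene was TCRBD02-01 in 18 rearrangements, TCRBD01-01 in 16 and unresolved in 7.

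The family was found in 15 of the 16 samples. The control mice held 909, 757, 1638 and 9 of its templates, or 3.50%, 1.84%, 4.30% and 0.0241% of all productive templates. The ANT008 mice held 484, 8, 86 and 17, or 2.13%, 0.0243%, 0.745% and 0.0818%. The anti-PD-1 mice held 80, 152, 3 and 72, or 0.249%, 0.481%, 0.00413% and 1.00%, and the combination mice 0, 851, 3410 and 195, or 0%, 3.47%, 5.81% and 0.539%. The high samples, above 1.5%, were 3 control mice, 1 ANT008 mouse and 2 combination mice, and each of these groups also held a mouse under 0.1%, so the groups overlapped. The 0 of combination mouse 1 came from the sample with the most TCRBV02-01 rearrangements, 631. The means were 2.41% ± 1.89 for control, 0.746% ± 0.981 for ANT008, 0.434% ± 0.426 for anti-PD-1 and 2.46% ± 2.71 for combination mice (SD, n = 4), given with no test because the family was chosen on these counts.

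Template counts within the family were uneven, with a mean of 211 and a median of 15 templates per rearrangement in the sample where it was found. These counts chose the family and are a description. With the family removed, TCRBV02-01 held 4.84% ± 1.87 of the productive templates that were left, from 2.26% to 9.40%. With the family kept, it held 6.27% ± 2.81 of all productive templates (SD, n = 16). The family held a mean of 7.34 inserted bases, against 3.65 in the others. In the 8 sequences printed, inserted bases helped to spell the D and E that define the family. This difference is therefore partly set by the definition and is a description. The same start, end and J gene occurred with 8 other V genes in 22 rearrangements, which held 26 templates in all and at most 5 in 1 sample.

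Over all productive TCRBV02-01 CDR3 nucleotide sequences, 147 of 5772 (2.55%) were found in more than 1 sample. The difference from the family was not tested and is a description, because the family was chosen on its template counts. Of the 36 nucleotide sequences of the family, 33 were found in 1 sample and only 3 (8.33%) in more than 1. Of the 3, that of control mouse 1 (739 templates) was also in ANT008 mouse 1 (483), ANT008 mouse 2 (2) and control mouse 4 (1), that of control mouse 2 (460) was in ANT008 mouse 3 (70), and that of anti-PD-1 mouse 2 (87) was in anti-PD-1 mouse 4 (1). The first and second of these carry 7 inserted bases, and each reached 50 templates in 2 mice. Outside the family, the leading clone of control mouse 1 did so too, at 1075 templates there and 193 in combination mouse 3. So did a sequence with a CDR3 of 15 residues, TCRBJ02-05 and 2 inserted bases, at 185 templates in combination mouse 3 and 81 in ANT008 mouse 1. How these sequences came to be in both libraries was not tested. Counted per sample rather than per distinct sequence, a mean of 6.28% of productive TCRBV02-01 rearrangements had identical CDR3 bases in another sample. For other V genes the mean was 6.54%. Out of frame, the means were 1.32% for TCRBV02-01 and 1.47% for other V genes.

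Sharing at the amino acid level was wider. Of the 5329 CDR3s, 93.8% occurred in 1 sample, 333 in 2 or more, 44 in 4 or more and 9 in 8 or more. The 44 made up 4.91% of TCRBV02-01 rearrangements and 21.9% of its templates. Each was encoded by at least 2 nucleotide sequences, 40 kept the CASSQ start, 25 were also made with another V gene, and 23 occurred in all 4 groups. Of the 9 in 8 samples or more, 8 occurred in all 4 groups. In each sample, the rearrangements of the 44 CDR3s had fewer inserted bases than those of CDR3s found there alone, with a median over samples of 2.06 against 3.92. In 41 of the 44 the CDR3 stayed at or under 1% of productive templates in every sample, and the highest value was 3.43%.

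The most widely shared was a CDR3 of 16 residues with TCRBJ01-04 that began CASSQDRDRG, found in 11 samples by 10 nucleotide sequences with 3 to 7 inserted bases (mean 3.82). Its 253 templates included 135 in ANT008 mouse 4 and at most 53 in any other mouse. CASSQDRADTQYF was also in 11 samples, by 9 nucleotide sequences and 126 templates, with 2, 1, 3 and 81 in control mice, 16, 12, 1 and 1 in ANT008 mice, 2, 0, 0 and 0 in anti-PD-1 mice, and 0, 6, 0 and 1 in combination mice. Every control and ANT008 mouse held it, while 3 anti-PD-1 and 2 combination mice did not, and 1 control mouse held most of its templates. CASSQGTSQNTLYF was in 10 samples with at most 13 templates, and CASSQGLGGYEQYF and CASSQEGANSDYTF in 9 with at most 9 and 6. These 3 public CDR3s were small in every mouse.

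A second CDR3 of 16 residues with TCRBJ01-04, which began CASSQERDRG, was in 9 samples, with 3 or 4 inserted bases, and reached 237 of its 282 templates in combination mouse 3. A CDR3 of 15 residues with TCRBJ02-01 that began CASSQDWG was in 9 samples with only 13 templates. One nucleotide version of it, with 0 inserted bases, was in 6 samples, the most for any TCRBV02-01 sequence, and other V genes made the same CDR3 in 7 samples. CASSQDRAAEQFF, in 8 samples, had 713 templates in anti-PD-1 mouse 1 and at most 29 in any other. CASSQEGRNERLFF, in 7 samples, had 163 in anti-PD-1 mouse 2 and 63 in ANT008 mouse 1. Each of the large counts came from 1 or 2 mice.

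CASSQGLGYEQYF was found in 8 samples and in no control mouse. The ANT008 mice held 1, 0, 0 and 11 of its templates, the anti-PD-1 mice 70, 0, 70 and 13, and the combination mice 77, 19, 28 and 0. The 0 of 142630 productive templates in the pooled control mice allows a share of up to 0.00210%, by counting error alone. The mean shares in the treated groups were 0.0143%, 0.124% and 0.0889%. Against control, the edgeR adjusted p-values of this clone were 0.439, 0.341 and 0.294. Each treated group held at least 1 mouse at 0, so every group overlapped with control.
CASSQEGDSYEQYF was instead absent from a treated group. Control mice held 663, 18, 0 and 4 templates, ANT008 mice 2, 0, 0 and 39, anti-PD-1 mice 271, 0, 86 and 0, and no combination mouse held any. The 0 of 152778 in the combination group allows up to 0.00196%. Control mouse 3 was at 0, so these groups overlapped too.

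**Figure D3:**
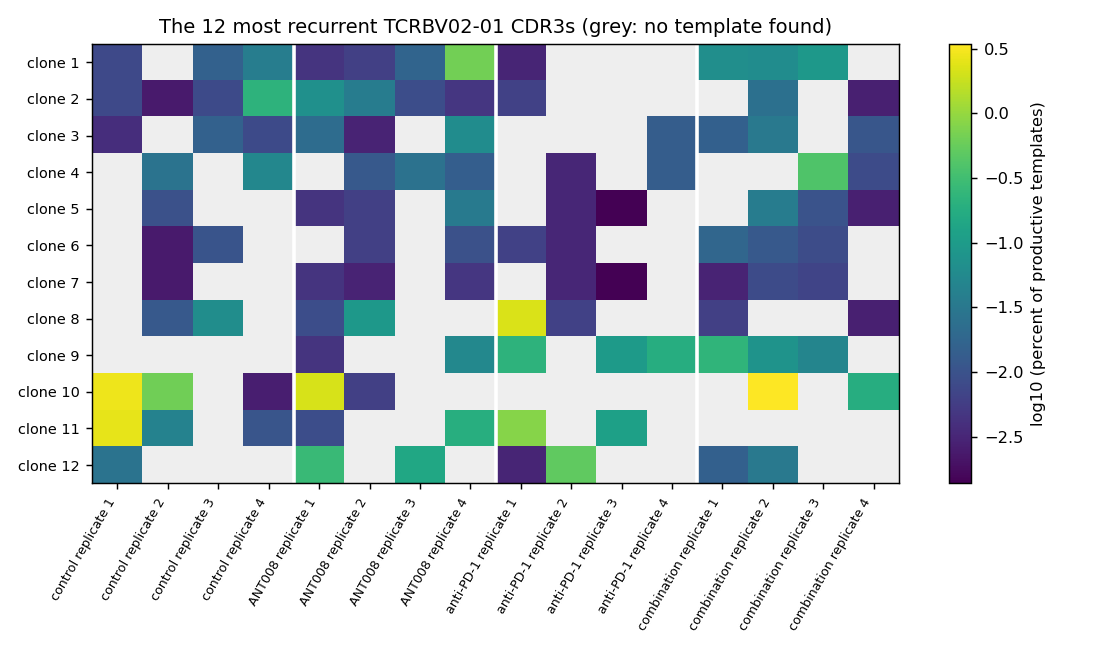
The 12 TCRBV02-01 CDR3s found in the most samples (rows, clones 1 to 12 in order of the number of samples, then of the mean share; clone 9 is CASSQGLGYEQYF and clone 10 the first sequence above) by sample (columns), coloured by log10 of the percent of productive templates; grey marks samples with no template found. Most cells are grey or under 0.1%, and the highest is 3.43%, in combination mouse 2.

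The test across clones covered 909 CDR3 and V gene pairs of all V genes found in at least 4 samples, 44 of them TCRBV02-01. In none of the 3 comparisons did edgeR call any of the 44 (0 at an adjusted p under 0.05), and 0% of all 909 were called. At an unadjusted p under 0.05 there were 2 of 44 in the ANT008 comparison, 4 in that of anti-PD-1 and 5 in that of the combination, while 10.9%, 12.5% and 14.5% of all clones were under that value. Higher in the treated group were 28, 24 and 31 of the 44, with median log2 fold changes of 0.52, 0.19 and 0.98, against 0.33, 0.21 and 0.59 over all 909. As shares, 63.6%, 54.5% and 70.5% of the 44 were higher, against 53.9%, 54.7% and 57.5% of all clones.

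In each comparison the TCRBV02-01 clone with the smallest p was at 0 templates in the treated group. With ANT008 it was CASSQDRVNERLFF, at 9, 1, 0 and 53 templates in control mice and 0 in the 4 ANT008 mice, whose 87921 templates allow up to 0.00341% (edgeR adjusted p 0.438). With anti-PD-1 it was the CASSQDE family CDR3 of the first sequence above, at 739, 259, 0 and 1 templates in control mice and 0 of 143559 with anti-PD-1, which allows up to 0.00209% (edgeR adjusted p 0.341). With the combination it was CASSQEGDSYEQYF (edgeR adjusted p 0.294). In each case 1 control mouse was also at 0. DESeq2 called the second of these (adjusted p 1.41e-09) and none of the other TCRBV02-01 clones to which it gave an adjusted p. It gave none for 4 of the 44 in each comparison, among them the third named clone in the combination. Of all clones it called 0.11%, 0.22% and 0.22%.

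How evenly the TCRBV02-01 templates were spread was measured as clonality, which is 0 where all rearrangements are equally common and 1 where a single one holds all templates. It was 0.569, 0.371, 0.516 and 0.305 in control mice, 0.401, 0.308, 0.194 and 0.251 in ANT008 mice, 0.384, 0.308, 0.144 and 0.175 in anti-PD-1 mice, and 0.251, 0.523, 0.613 and 0.183 in combination mice. Most ANT008 and anti-PD-1 mice lay in the lower part of the range, but every group overlapped with control. Against the control mean of 0.440 ± 0.123 (SD, n = 4), the differences were -0.151 for ANT008 (p 0.331), -0.188 for anti-PD-1 (p 0.194) and -0.0477 for combination mice (p 0.926), by an exact permutation test of Dunnett's statistic over 63063000 assignments. At an equal depth of 506 TCRBV02-01 templates a sample the differences were -0.121, -0.159 and -0.0432.

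The share of TCRBV02-01 among unique productive rearrangements was set against its share among out-of-frame ones in the same mouse, a comparison of the repertoire with rearrangement before selection. The log2 ratio averaged 0.05 ± 0.0983 (SD, n = 16), from -0.12 to 0.20, and was above 0 in 10 of 16 mice. The exact sign-flip permutation test gave p 0.0693, adjusted over 24 V genes 0.0978, where 62.5% of V genes passed (37.5% higher and 25% lower). TCRBV02-01 was thus among the genes with the least difference between frames. Its upstream neighbours ranged from -0.90 for TCRBV04-01, below 0 in all 16 mice, to 0.50 for TCRBV03-01, with 0.10 for TCRBV05-01 and 0.12 for TCRBV01-01. The TCRBV02-01 call depended on settings: with stop-codon rearrangements added to the reference the ratio was 0.08 (adjusted p 0.00957, exact permutation test), and without ANT008 mouse 2 it was 0.06 (adjusted p 0.0368, exact permutation test).

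**Figure D4:**
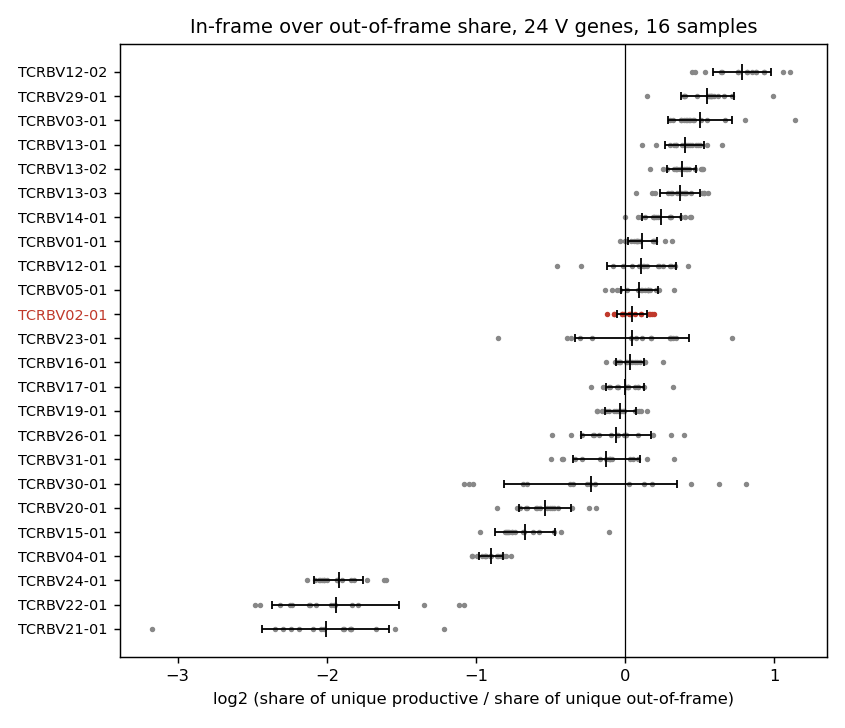
Log2 of the share of unique productive over unique out-of-frame rearrangements (x axis) for the 24 V genes tested (y axis); each point is 1 of 16 mice, and the bars mark the mean and SD. TCRBV02-01, labelled in red, lies close to 0 with a mean of 0.05, between TCRBV04-01 at -0.90 and TCRBV03-01 at 0.50.

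TCRBV02-01 had the longest CDR3s of the V genes tested. Its unique productive rearrangements averaged 14.7 residues ± 0.105 and those of other V genes in the same mice 14.0 ± 0.0618 (SD, n = 16). The mean difference was 0.701 residues ± 0.0801, positive in 16 of 16 mice and the highest of 21 V genes, ahead of TCRBV05-01 at 0.557. It passed the exact sign-flip permutation test (adjusted p 7.12e-05), as did 85.7% of V genes in either direction and 38.1% as longer. Out of frame the difference was 0.763 residues ± 0.152, also in 16 of 16 mice and also the highest. The TCRBV02-01 segment leaves 17 bases to the CDR3 when untrimmed.

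Inserted bases differed little. TCRBV02-01 productive rearrangements held 3.66 ± 0.149 inserted bases and other V genes 3.55 ± 0.0769 (SD, n = 16). The difference of 0.108 ± 0.169 was positive in 12 of 16 mice and 8th of 21 V genes (adjusted p 0.0210, exact permutation test), with 81% of V genes called and 42.9% called higher. Weighted by templates, so that expanded clones count more, it was 0.982 (adjusted p 0.00417, exact permutation test), where 42.9% of V genes were called. That value includes the CASSQDE family, which was picked out on its template counts and held a mean of 7.34 inserted bases.

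J gene use of TCRBV02-01 was close to that of other V genes in the same mice. TCRBJ02-07 was the most used at 19.5% of unique productive rearrangements against 21.2% for other V genes, followed by TCRBJ02-01 at 12.2% against 13.1% and TCRBJ02-05 at 10.5% against 11.3%. Each V-J pair was tested by an exact sign-flip permutation test over the 16 mice, adjusted over 294 pairs of 21 V and 14 J genes, of which 44.2% passed (24.1% higher and 20.1% lower). Of the 14 TCRBV02-01 pairs 7 passed. For TCRBJ01-07 and TCRBJ02-06 the call is void, because TCRBV02-01 had 0 productive rearrangements with either and the pseudocount of 0.5 alone set the ratio. With these J genes left out for all V genes, a choice made after the values were seen, 32.1% of 252 pairs passed, 10.7% as higher and 21.4% as lower, and 3 of 12 for TCRBV02-01.

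Those 3 were TCRBJ01-04, TCRBJ01-03 and TCRBJ02-07. TCRBJ01-04 was used more, at 9.04% ± 2.21 against 7.09% ± 0.438 (SD, n = 16), in 13 of 16 mice (log2 0.31, adjusted p 0.00591, permutation test). TCRBJ01-03 was used less, at 3.85% ± 0.858 against 4.95% ± 0.306, lower in 15 of 16 mice (log2 -0.36, adjusted p 0.00123, permutation test). TCRBJ02-07 was lower in 14 of 16 mice (log2 -0.15, adjusted p 0.00400, permutation test). In the whole set of 294 pairs TCRBJ01-06, at 4.22% against 3.01%, passed as higher (adjusted p 0.0434, permutation test) and TCRBJ02-04, at 7.19% against 7.87%, as lower (adjusted p 0.0416, permutation test), and neither passed in the smaller set (0.0537 and 0.0628).

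Out-of-frame rearrangements, which selection does not reach, shared part of this pattern. TCRBJ01-04 was again higher (log2 0.40, adjusted p 0.000209, permutation test) and TCRBJ02-07 lower (-0.45, adjusted p 0.000390, permutation test), where 34.4% of pairs passed. TCRBJ01-03 did not pass there (-0.03, adjusted p 0.877, permutation test), and TCRBJ01-01 passed as higher (0.37, adjusted p 0.00106, permutation test), while its productive value was -0.20 (adjusted p 0.0791, permutation test). TCRBJ02-05 (-0.29, adjusted p 0.00941, permutation test) and TCRBJ02-01 (-0.31, adjusted p 0.0414, permutation test) passed as lower out of frame, and neither passed among productive rearrangements. Whether the frames differed was not tested. The out-of-frame and template tests were adjusted over all 294 pairs, with the J genes of the void calls included. Unlike the productive test, they were not repeated without those J genes. The out-of-frame pass of TCRBJ02-01, close to the threshold, and the shares of pairs that passed may therefore depend on them. TCRBJ02-03, the J gene of the CASSQDE family, made up 9.81% of unique TCRBV02-01 rearrangements against 8.49% for other V genes, which did not pass. By templates it made up 25.9% ± 22.2 (SD, n = 16), up to 71.4% in 1 mouse. There it passed (log2 1.38, adjusted p 0.0187, permutation test, with 37.1% of pairs called). That value includes the family, which was picked out on these same template counts, so the pass is a description and no separate evidence for it. TCRBJ01-03 was lower by templates too (-1.74, adjusted p 0.000382, permutation test), while TCRBJ01-04 (0.40, adjusted p 0.299, permutation test) and TCRBJ02-07 (-0.57, adjusted p 0.0669, permutation test) did not pass.

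**Figure D5:**
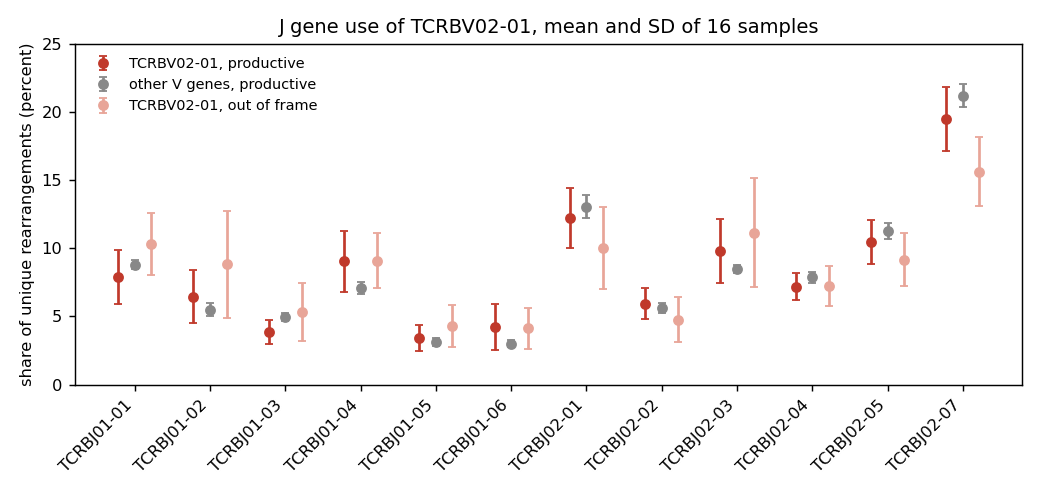
Share of unique rearrangements in percent (y axis) by J gene (x axis) for productive TCRBV02-01, productive rearrangements of other V genes and out-of-frame TCRBV02-01. Points are means and error bars SDs over 16 mice, and the 2 J genes that productive TCRBV02-01 did not use are left out. TCRBJ02-07 is the most used in all, at 19.5% and 21.2% in productive TCRBV02-01 and other V genes.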

How the data were processed

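TCRβ chains of 16 samples, each from a separate mouse, were surveyed by the immunoSEQ mouse TCRβ service. The deposited files list, for each unique rearrangement, its nucleotides, frame, V, D and J genes, inserted bases and a whole-number template count, which per the file headers the service estimated after correcting primer bias with a synthetic repertoire. The service's aligner and reference are not given in the sources used here, and the labels do not settle whether RNA or DNA was amplified, so a template may be either.

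TCRBV02-01 rearrangements were taken by the V gene assignment. The members and lists were chosen with earlier results of these data known. Named CDR3s were the 12 found in the most samples (ties by mean share), the largest TCRBV02-01 rearrangement of each sample and the clone with the smallest edgeR p in each comparison. For these, entries of a sample with the same V gene and CDR3 bases were summed, since entries differing only before the CDR3 inflated the number of sequences. Shares, J use and length used the entries as listed. Some nucleotide sequences are not reported here.

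Template counts per V gene (at least 10 templates in 4 samples) and per clone (found in at least 4 samples) were tested with edgeR 4.0.16 (R 4.3.3; quasi-likelihood, all 16 samples, productive templates as library size), with DESeq2 1.42.0 as an alternative. Comparisons within mice used exact sign-flip permutation tests of mean log2 ratios (pseudocount 0.5) or differences, two-sided, for V genes with a mean of at least 10 unique out-of-frame (frame comparison) or 50 unique productive rearrangements (J use, length and inserted bases) a sample. Clonality (1 minus normalised Shannon entropy) was compared by an exact two-sided permutation of Dunnett's statistic, and p-values were otherwise adjusted by Benjamini-Hochberg over all features tested, at 0.05. The edgeR and permutation code was checked on data with known answers. The replicate numbers were not used to pair the mice in the main tests. Samples with the same number correlated at a median of -0.06 over the V genes (24 pairs, -0.53 to 0.65), and samples with other numbers at 0.005. These correlations cannot decide whether the numbers pair the mice in some other way. Alternatives are given at the end.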

Additional observations from a re-analysis of the deposited data

Results flagged for a closer look

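In each group of 4 mice, 11 TCRBV02-01 measures were searched for a mouse that stood far from the other 3. Of the 44 sets of 4 values, 2 held one, and chance flags about 1 in 20 groups. TCRBV02-01 made up 5.79% of unique out-of-frame rearrangements in anti-PD-1 mouse 4, against 4.35% to 4.42% in the other anti-PD-1 mice. It made up 26.9% of out-of-frame templates in control mouse 4, against 3.79% to 4.35% in the other control mice. In that mouse a single out-of-frame rearrangement held 2730 of the 3428 out-of-frame TCRBV02-01 templates (79.6%). With that rearrangement removed, TCRBV02-01 made up 6.96% of the out-of-frame templates that were left.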

How the results depend on the processing

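Of 213 values under alternative settings, 188 kept the direction and the side of the threshold, or for counts stayed within 1.5 times of the value given. No TCRBV02-01 usage difference passed under any alternative, but the signs were not stable. With each rearrangement capped at 10 templates the log2 changes were 0.0461 (ANT008), 0.0639 (anti-PD-1) and -0.0293 (combination). The combination value was also below 0 with unique rearrangements (-0.0555), TMM factors (-0.12), DESeq2 (-0.0374), non-productive rearrangements (-0.57) and the top rearrangement of each V gene left out (-0.25). Leaving out 1 mouse in turn gave -0.18 to 0.50 for the combination, -0.69 to -0.01 for ANT008 and -0.70 to -0.02 for anti-PD-1, each extreme near 0 or above it being without control mouse 1. With the replicate number as a block the usage changes were -0.37, -0.36 and 0.16, the clonality p-values 0.125, 0.125 and 0.75 (exact permutation within pairs, which cannot go below 0.125), and 0 TCRBV02-01 clones were called, so the block changed no call. Of the 16 samples, 6 correlated best with a sample of their own number, which cannot decide whether the numbers pair the mice.

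The in-frame over out-of-frame ratio was -0.00880 among single-template rearrangements, 0.0812 with stop-codon rearrangements in the reference and 0.0611 with entries of the same CDR3 bases counted once (adjusted p 0.0341, exact permutation test). Leaving out 1 mouse gave 0.0383 to 0.0595, and only the highest, without ANT008 mouse 2, passed. J genes called fell to 3 with rare J genes left out. By templates 8 passed and out of frame 7, but in each only 4 of the 7 first called passed in the same direction, the 2 void ones included. The combination clonality difference ran from -0.121 to 0.0222, the latter without combination mouse 4. Of the 9 CDR3s in 8 samples or more, 1 was left with at least 2 templates a sample, 1.85 at an equal depth of 7180 templates (mean of 20 draws) and 0 by identical nucleotides, whole or within the CDR3, while 16 reached 6 samples and 0 reached 12. DESeq2 called 1 TCRBV02-01 clone with anti-PD-1. The cause of these shifts was not tested. The settings that counted identical CDR3 bases, dropped rare J genes or left out the CASSQDE family were chosen after seeing the data. Depth limits the small clones: a share of 0 in a group allows up to 0.00196% to 0.00341%, by counting error alone with its mice pooled.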
